A study of Mus musculus with 20 samples.

Results

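The comparison of β-Mfn1/2DKO with β-Mfn2KO islets asks what the loss of Mfn1 in β cells changes in islet RNA where Mfn2 is already lost. It takes 10 of the 20 samples of the series, 5 β-Mfn1/2DKO and 5 β-Mfn2KO samples, chosen by the genotype in the sample labels. RNA was sequenced from islets of 12-week-old C57BL/6N mice after 24 h in culture, and the unit of the results is the RNA-seq count of a gene. β-Mfn2KO mice carried loxP sites around exon 6 of Mfn2, and β-Mfn1/2DKO mice also carried them around exon 4 of Mfn1. Both groups carried Ins1-Cre, which is driven by the insulin 1 promoter and acts in β cells, so other cells of the islet kept intact copies of both genes. Each group held 2 females (samples 1 and 2) and 3 males (samples 3 to 5). Depth did not overlap between the groups: β-Mfn2KO samples held 15.1 to 59.5 M counts and β-Mfn1/2DKO samples 65.5 to 122.9 M. The 6 Ctrl and 4 β-Mfn1KO samples, of the same age, entered the fit of the spread and a test of whether the effect of Mfn1 loss differed with and without Mfn2. β-Mfn1KO mice carried Ins1-Cre and the loxP sites of Mfn1, and the study combined mice with Ins1-Cre alone or loxP sites alone as Ctrl. Ctrl held 3 females and 3 males, and β-Mfn1KO 3 females and 1 male. Their depth was 12.4 to 20.3 M counts in Ctrl and 15.7 to 16.7 M in β-Mfn1KO.

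Mitofusins 1 and 2 are GTPases of the outer mitochondrial membrane that tether neighbouring mitochondria and fuse them, which mixes their contents, mtDNA included. The mtDNA encodes core subunits of the respiratory chain and of ATP synthase, and proteins made from nuclear genes copy it, transcribe it and complete the same complexes. β cells couple glucose to insulin release through mitochondrial ATP, which closes potassium channels in the cell membrane and lets calcium in.

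Exon 4 of Mfn1, which the conditional allele removes, is shown because its loss sets the groups apart. In transcript Mfn1-201 (18 exons) it lies at chr3:32538270-32538432 on the plus strand of GRCm38 and is 163 bases long, which leaves a remainder of 1 on division by 3. Capitals mark the 19 bases at the 5′ edge that encode the part of the G1 motif of the GTPase domain lying in the exon. The motif binds the phosphates of GTP.
Mfn1 exon 4: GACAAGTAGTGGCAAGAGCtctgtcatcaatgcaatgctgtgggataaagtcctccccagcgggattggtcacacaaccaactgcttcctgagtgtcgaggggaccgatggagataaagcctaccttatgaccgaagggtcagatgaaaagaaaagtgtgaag

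The targeted genes separated the groups in each of the 10 samples. Mfn1 (ENSMUSG00000027668) had 1712, 1711, 1683, 1807 and 1693 normalized counts in β-Mfn2KO samples 1 to 5 and 690, 691, 687, 856 and 1062 in β-Mfn1/2DKO samples 1 to 5. The groups did not overlap, and β-Mfn1/2DKO samples 4 and 5 kept more Mfn1 RNA than samples 1 to 3. Mfn1 fell by 2.16-fold (log2 fold change -1.11, SE 0.10, adjusted p = 1.5e-07, edgeR quasi-likelihood, Benjamini-Hochberg), and its means in Ctrl and β-Mfn1KO islets were 1670 and 674. Mfn2 (ENSMUSG00000029020), lost in both groups, had 1532, 1586, 1688, 1474 and 1607 counts in β-Mfn2KO and 2022, 2082, 2062, 2131 and 2124 in β-Mfn1/2DKO samples. It stood higher in all 5 β-Mfn1/2DKO samples (log2 fold change 0.40, SE 0.08, adjusted p = 0.0011, edgeR quasi-likelihood, Benjamini-Hochberg), and both groups lay below the Ctrl mean of 3505 and the β-Mfn1KO mean of 4352. The effect of Mfn1 loss on Mfn2 RNA did not pass the test of a difference between islets with and without Mfn2 (difference 0.09, adjusted p = 0.77, edgeR), nor did that on Mfn1 itself (0.20, adjusted p = 0.52).

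**Figure D1:**
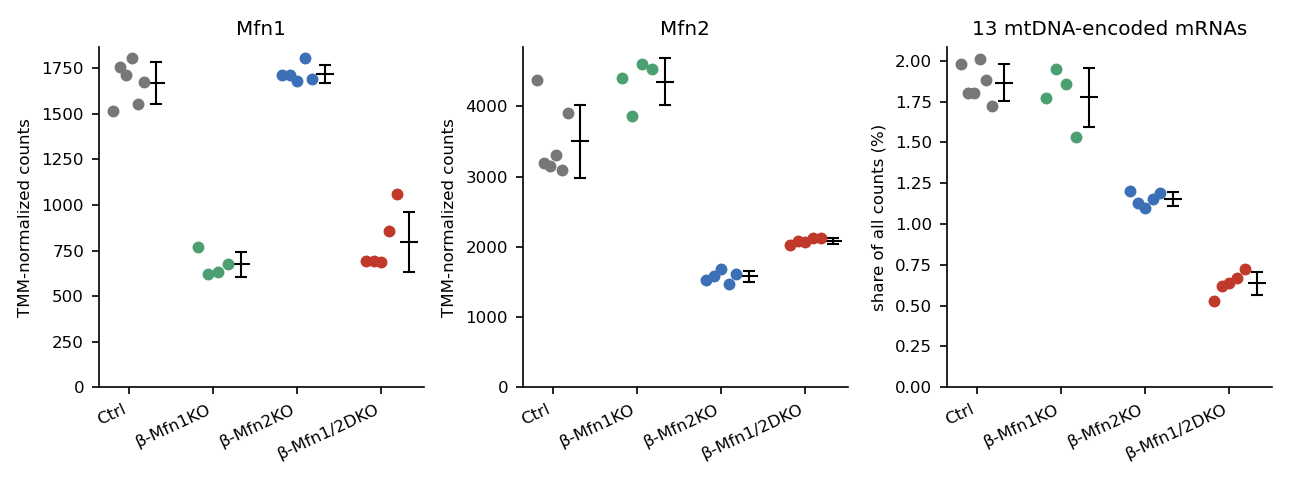
Normalized counts of Mfn1 and Mfn2 and the percent of all counts on the 13 mtDNA mRNAs in each sample of the 4 groups, with points for samples and bars for the mean and SD. Mfn1 separates the groups without a functional Mfn1 allele in β cells from the others, and the mtDNA mRNA share lies between 0.530% and 0.722% in β-Mfn1/2DKO and between 1.10% and 1.20% in β-Mfn2KO samples.

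Across the transcriptome the loss of Mfn1 in the absence of Mfn2 changed many genes in both directions. All mtDNA mRNAs and most genes of β-cell function fell, and 13 of 30 genes of the ATF4 list rose. Of 28632 genes tested, 1099 (3.84%) passed an adjusted p under 0.05 with a fold change over 1.5 (edgeR quasi-likelihood test, Benjamini-Hochberg), 586 higher (2.05%) and 513 lower (1.79%) in β-Mfn1/2DKO. At adjusted p under 0.05 alone, 3719 genes passed (13%), 2030 higher (7.09%) and 1689 lower (5.90%), with a median log2 fold change over all genes of 0.00. Among the 15267 genes with enough counts to pass edgeR's filter, these shares were 12.9% and 10.1%. The 5 β-Mfn1/2DKO samples lay above all 5 β-Mfn2KO samples for 6.56% of all genes and below them for 5.26%; among the 1099 called genes the groups did not overlap for 752. Counts of list members in what follows use the adjusted p alone and are to be read beside 7.09% higher and 5.90% lower. Most list members pass that filter, and for them 12.9% higher and 10.1% lower are the closer shares. In islets that kept Mfn2, β-Mfn1KO against Ctrl, Mfn1 loss changed few genes: 7 were called (0.0244%; 0.00349% higher, 0.0210% lower) and 8 passed the adjusted p alone (0.0279%; 0.00699% higher, 0.0210% lower). Mfn2 loss alone, β-Mfn2KO against Ctrl, gave 15 called genes (0.0524%; 0.00699% higher, 0.0454% lower) and 16 by adjusted p (0.0559%; 0.00699% higher, 0.0489% lower). For β-Mfn1/2DKO against Ctrl the called share was 5.21% (3.24% higher, 1.97% lower) and that by adjusted p 16.5% (9.59% higher, 6.86% lower). Ctrl and β-Mfn1KO samples were shallower than the β-Mfn1/2DKO samples, and β-Mfn1KO held only 4. With counts drawn down to the smallest total, 789 genes were called between β-Mfn1/2DKO and β-Mfn2KO. The part of depth in the gap to β-Mfn1KO against Ctrl was not tested.

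**Figure D2:**
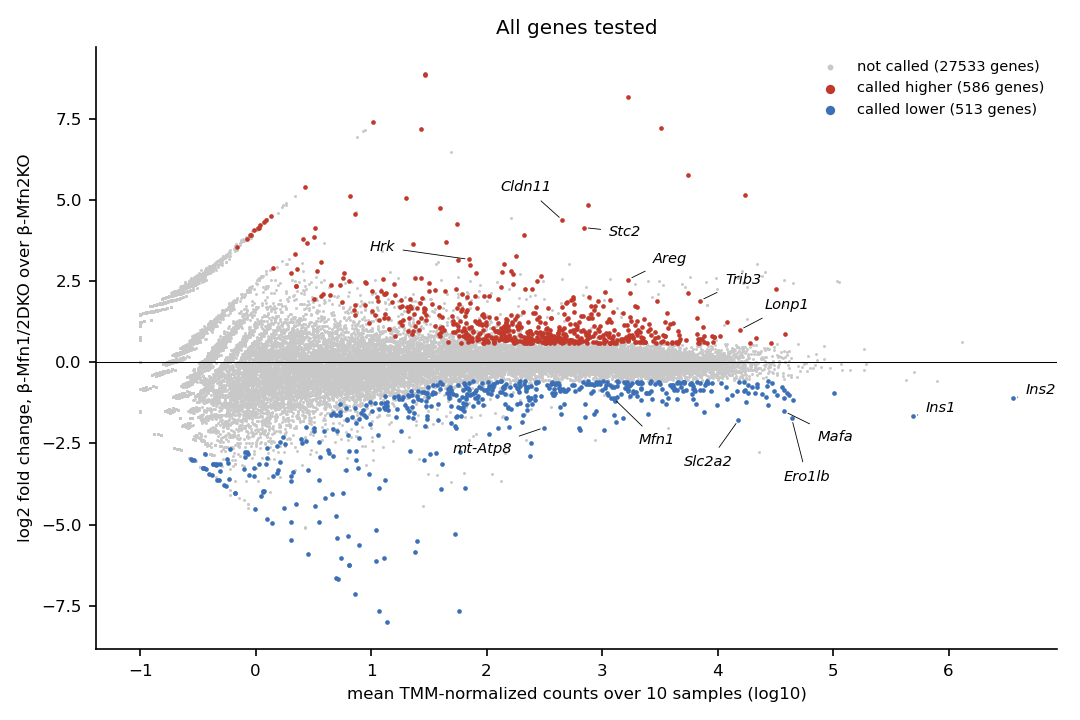
Log2 fold change of β-Mfn1/2DKO over β-Mfn2KO against the mean normalized count over the 10 samples (log10), 1 point per gene, red and blue for the 586 and 513 genes called higher and lower. Ins1, Ins2 and Ero1lb lie among the most abundant genes and fell, while Stc2, Cldn11, Areg and Hrk rose from low levels.

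All 13 mtDNA mRNAs fell, with a median log2 fold change of -1.01. Their share of all counts was 1.20%, 1.13%, 1.10%, 1.15% and 1.19% in β-Mfn2KO samples and 0.530%, 0.619%, 0.637%, 0.670% and 0.722% in β-Mfn1/2DKO samples. The groups did not overlap, and the mean of 0.636% ± 0.0705 (SD, n = 5) was 0.551 of the β-Mfn2KO mean of 1.15% ± 0.0438 (SD, n = 5; difference -0.518 percentage points, exact permutation test, two-sided p = 0.0079, the smallest that 252 splits allow). Counting error was small beside this spread: the 95% Wilson interval for β-Mfn1/2DKO sample 1 ran from 0.529% to 0.532%. In Ctrl islets the share ran from 1.72% to 2.01%, and in β-Mfn1KO islets from 1.53% to 1.95%.

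mt-Nd2, a subunit of complex I, had 42084, 39686, 32253, 39791 and 39433 counts in β-Mfn2KO and 13716, 16055, 14792, 17511 and 16348 in β-Mfn1/2DKO samples. It fell in every β-Mfn1/2DKO sample below the lowest β-Mfn2KO sample (log2 fold change -1.30, SE 0.09, adjusted p = 1.5e-08, edgeR). mt-Cytb of complex III went from 63649, 55721, 52728, 54128 and 52573 to 21585, 26666, 26710, 29392 and 34207 (-1.01, adjusted p = 1.5e-06, edgeR), again without overlap. The other complex I mRNAs changed by -1.01 (mt-Nd1), -1.10 (mt-Nd4), -0.77 (mt-Nd5), -0.81 (mt-Nd6), -1.49 (mt-Nd3) and -1.83 (mt-Nd4l). For complex IV the values were -0.93 (mt-Co1), -0.87 (mt-Co2) and -0.85 (mt-Co3), and for ATP synthase -0.98 (mt-Atp6) and -2.01 (mt-Atp8). The groups overlapped for mt-Nd4l alone among the 13. The log2 fold change of mt-Atp8 ranged from -2.50 to -1.02 over the alternatives, that of mt-Nd4l from -2.32 to -1.02 and that of mt-Nd3 from -1.87 to -0.90, each nearest 0 under the authors' normalization factors. Without β-Mfn2KO samples 4 and 5, where short transcripts stood higher, the log2 fold change of mt-Atp8 was -1.42, of mt-Nd4l -1.28 and of mt-Nd3 -1.08. Counts of these short transcripts are uncertain: mt-Atp8 overlaps mt-Atp6, mt-Nd4l overlaps mt-Nd4, and mt-Nd3 and mt-Nd4l share over 90% of their 75-base stretches with nuclear copies of mtDNA, as do mt-Co2, mt-Atp6 and mt-Co3. mt-Co1 and mt-Nd4 share 39.8% and 61.5%, and mt-Nd6 lies antisense to mt-Nd5. mt-Nd1 and mt-Cytb share none. Both mtDNA rRNAs fell as well: mt-Rnr1 by -1.13 and mt-Rnr2 by -1.02 in log2 fold change, the latter with overlap between groups. No tRNA of the mtDNA list was in the count table.

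For 11 of the 13 mtDNA mRNAs the effect of Mfn1 loss differed between islets with and without Mfn2 (edgeR, interaction). For mt-Nd2 the difference between both effects was -1.28 (adjusted p = 1.4e-05, edgeR), with -1.30 without Mfn2 and -0.02 with it. The exceptions were mt-Nd5 (adjusted p = 0.052, edgeR) and mt-Nd4l (adjusted p = 0.17). Across all genes 1694 passed this test (5.92%), 826 with a more positive (2.88%) and 868 with a more negative effect (3.03%) in the absence of Mfn2. With a fold over 1.5 as well, 784 were called (2.74%; 1.36% higher, 1.38% lower). Of the 1694 genes, 1507 (89.0%) also passed between β-Mfn1/2DKO and β-Mfn2KO, which is 40.5% of the genes that passed there. Both tests use the same 10 samples. With counts of all samples drawn down to the smallest total, 961 genes passed the interaction.

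The machinery that copies and transcribes mtDNA moved upward in parts. Of 30 genes for mtDNA replication, transcription and nucleoid, 8 passed higher and 0 lower, with a median of 0.11; under total-count scaling 16 did, with a median of 0.22. Lonp1, the matrix protease that degrades unfolded and nucleoid proteins, had 7315, 9080, 12647, 11021 and 11985 counts in β-Mfn2KO and 21628, 22583, 20872, 21332 and 17867 in β-Mfn1/2DKO samples. All 5 β-Mfn1/2DKO samples were higher, and Lonp1 rose 2.00-fold (adjusted p = 9.8e-06, edgeR). Slc25a33, a pyrimidine nucleotide carrier, rose from 138, 165, 172, 135 and 162 to 368, 405, 294, 438 and 438 counts (1.33, adjusted p = 1.2e-06, edgeR). Dnaja3, a matrix co-chaperone (0.60), the dUTPase gene Dut (0.35), the nucleoid ATPase gene Atad3a (0.33) and the topoisomerase gene Top1mt (0.77) rose too. So did the helicase gene Twnk (0.27, with 12.6% of its exon bases antisense to Mrpl43) and the nuclease gene Mgme1 (0.32), both chosen after their values were seen. Tfam, which packages and transcribes mtDNA, did not pass (0.16, adjusted p = 0.064, edgeR), with overlapping samples, and neither did the polymerase genes Polg (0.14, adjusted p = 0.13) and Polrmt (0.13, adjusted p = 0.11). Leaving out 1 sample ended the call of Top1mt (0.62 without β-Mfn1/2DKO sample 5, 2 of 10 removals). Here and below, the number of the 10 removals of 1 sample that ended or gave a call is set beside 1 of them where it was over 1. With 1 sample left out a call was gained for Tfam (0.21 without β-Mfn2KO sample 3), Polg (0.19 without β-Mfn1/2DKO sample 2) and Polrmt (0.17 without β-Mfn2KO sample 3).

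Among 16 regulators of mitochondrial biogenesis 4 rose and 1 fell (median 0.08). Nrf1, a transcription factor for nuclear respiratory genes, had 1712, 1597, 2482, 1818 and 1842 counts in β-Mfn2KO and 3657, 3973, 3540, 3149 and 2726 in β-Mfn1/2DKO samples, without overlap. It rose by 0.85 (SE 0.11, adjusted p = 1.5e-05, edgeR), and the effect of Mfn1 loss was larger without Mfn2 than with it by 0.82 (adjusted p = 0.0029). Pparg (0.68), the deacetylase gene Sirt3 (0.28) and the nuclear receptor gene Esrra (0.23) rose, the AMP kinase gene Prkaa1 fell (-0.34), and Ppargc1a did not pass (0.26, adjusted p = 0.55, edgeR). Calls that ended without 1 sample were those of Esrra (0.21 without β-Mfn2KO sample 1, 5 of 10 removals).

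Chaperones, proteases and translation of mitochondria rose more often than they fell. Of 23 chaperones and proteases, 9 rose and 2 fell (median 0.08). Hspa9, the matrix Hsp70 (0.48), Htra2 (0.39, with 25.6% of its exon bases antisense to Aup1) and Clpb (0.25) rose, Hspe1 (-0.32) and the inner membrane protease gene Yme1l1 (-0.27) fell, and Hspd1 (-0.04, adjusted p = 0.72, edgeR) and Clpx (-0.03, adjusted p = 0.79) did not pass. In protein import 8 of 35 genes rose and 1 fell (median 0.11), with Gfer (0.53), Timm10 (0.50) and Timm44 (0.23) higher and Timm29 (-0.21) lower. Among 78 mitochondrial ribosomal proteins 20 rose and 2 fell (median 0.10), and 13 rose without β-Mfn2KO sample 1. That count was 35 under total-count scaling (median 0.21), 9 with counts drawn down to the smallest total and 7 with samples of over 40 M counts alone. Here and below, that last setting kept the 5 β-Mfn1/2DKO samples but only samples 4 and 5 of β-Mfn2KO. It was fitted without the other groups. Mrpl38 (0.42), Mrpl30 (0.39), Mrps26 (0.38) and Mrpl9 (0.36) were the leading ones upward, and Mrps36 (-0.31) and Mrps21 (-0.26) fell. Mrps21 changed sign under the authors' normalization factors (0.05), where Mrps36 did not pass (-0.23). Dependent on single samples were the calls of Hspe1 (-0.22 without β-Mfn2KO sample 5, 6 of 10 removals), Timm29 (-0.16 without β-Mfn1/2DKO sample 2, 9 of 10 removals) and Mrps21 (-0.18 without β-Mfn2KO sample 5, 6 of 10 removals).

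Of 88 cytosolic ribosomal proteins 51 rose, 3 fell and 34 did not pass, with a median of 0.32. With samples of over 40 M counts alone 14 rose (median 0.26). Rps14 (0.57) and Rpl13 (0.54) were among those that rose. The genes that fell were Rpl22l1 (-0.32), Rps29 (-0.61) and Rpl39l (-3.64). Rpl39l had 30.4 counts in β-Mfn2KO sample 5 and at most 2.69 in the other 9 samples, and without sample 5 its fold change was 0.23. The call ended on removal of 1 sample for Rps29 (-0.33 without β-Mfn2KO sample 5, 7 of 10 removals) and Rpl39l (0.23 without β-Mfn2KO sample 5, 2 of 10 removals).

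Most nuclear subunits of the respiratory chain did not pass the test. Of 36 complex I subunits 7 fell and 1 rose (median 0.01, of either sign under other scalings), and of 40 subunits of complexes II to V 9 fell and 0 rose (median -0.12). The named ones that fell were Ndufa1 (-0.60), Ndufb3 (-0.30) and Ndufs1 (-0.20) of complex I, Sdhc (-0.29) of complex II, Uqcrb (-0.48) of complex III, and Ndufa4 (-0.59) and Cox6c (-0.40) of complex IV. Ndufa8 rose (0.20). Sdha (-0.02, adjusted p = 0.88, edgeR) and Cox4i1 (0.06, adjusted p = 0.66) did not pass. Several of these are short transcripts. Of 203 kept genes with at most 600 exon bases, 9 rose and 33 fell (16.3%, median -0.27), and such genes stood 0.45 log2 units higher in β-Mfn2KO samples 4 and 5 than in samples 1 to 3. Without β-Mfn2KO samples 4 and 5, 3 subunits of complex I and 3 of complexes II to V fell (median of the latter -0.06). Ndufb3 and Cox6c did not pass there. With offsets for exon length 9 subunits of complex I and 15 of complexes II to V fell (median of the latter -0.11), under total-count scaling 2 and 3 did, under the authors' normalization factors 3 and 5, and without β-Mfn1/2DKO samples 4 and 5 it was 2 and 3. With the DESeq2 Wald test 16 of complexes II to V fell, and with samples of over 40 M counts alone 4 of complex I did. Without β-Mfn2KO sample 5 the count for complexes II to V was 4, and without sample 4 that for complex I was 4. Removal of 1 sample ended the call of Ndufa8 (0.17 without β-Mfn2KO sample 1).

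Of 22 fusion and fission genes 3 rose and 4 fell (median -0.04). Beside the mitofusins, the ubiquitin ligase gene March5 (0.32) and Mtfr1l (0.26) rose, and Yme1l1, Miga1 (-0.24) and Gdap1 (-0.22) fell. Opa1, which fuses inner membranes (-0.03, adjusted p = 0.74, edgeR), and the fission GTPase gene Dnm1l (-0.10, adjusted p = 0.23) did not pass. Of 30 RNA processing genes 3 rose and 0 fell (median 0.03): Gtpbp3 (0.25), Mrm1 (0.24) and Mrm3 (0.30), while Lrpprc did not pass (-0.08, adjusted p = 0.52, edgeR). Among 48 SLC25 carriers and uncoupling proteins 6 rose and 4 fell (median 0.01), with Slc25a39 (0.52), Slc25a20 (0.44) and Slc25a26 (0.39) higher beside Slc25a33, and Slc25a29 (-0.59), Slc25a25 (-0.31), Slc25a53 (-0.26) and Slc25a3 (-0.17) lower. In cristae organisation 3 of 15 genes rose, Atad3a, Phb2 (0.20) and Stoml2 (0.19), and Apool fell (-0.37, median 0.07). For mitochondrial calcium, of 12 genes the outer membrane channel gene Vdac3 rose (0.68) and Micu3, which gates calcium uptake, fell (-0.33, median 0.10). Vdac3 went from 4006, 3728, 4068, 4150 and 4519 to 6637, 7644, 6764, 6572 and 5141 counts (adjusted p = 3.7e-05, edgeR). The uniporter gene Mcu did not pass (0.03, adjusted p = 0.82, edgeR). Leaving out 1 sample ended the call of Mrm1 (0.25 without β-Mfn2KO sample 2, 4 of 10 removals), Mrm3 (0.27 without β-Mfn2KO sample 2, 7 of 10 removals), Slc25a53 (-0.20 without β-Mfn1/2DKO sample 4, 3 of 10 removals), Slc25a3 (-0.13 without β-Mfn1/2DKO sample 3, 9 of 10 removals) and Phb2 (0.18 without β-Mfn2KO sample 1). Calls that ended without 1 sample were those of Stoml2 (0.19 without β-Mfn2KO sample 2, 2 of 10 removals) and Apool (-0.31 without β-Mfn1/2DKO sample 1, 3 of 10 removals).

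Of 13 genes for coenzyme Q synthesis 5 rose and 1 fell (median 0.14): Coq5 (0.39), Coq4 (0.33), Coq9 (0.19), Coq2 (0.18) and Coq3 (0.39, chosen after its values were seen) were higher and Coq10b (-0.41) was lower. Of 17 genes for iron-sulfur clusters 4 rose and 1 fell (median 0.14), with the co-chaperone gene Hscb (0.42), Nfu1 (0.37), Lyrm4 (0.34) and Fdx1l (0.38) higher. Fdx1l lies within a transcript that shares 72.7% of its exon bases, and 27.1% of those of Coq4 lie antisense to Trub2. Dependent on single samples were the calls of Coq2 (0.16 without β-Mfn2KO sample 2, 2 of 10 removals), Coq3 (0.33 without β-Mfn1/2DKO sample 5, 7 of 10 removals), Coq10b (-0.35 without β-Mfn1/2DKO sample 4, 6 of 10 removals), Lyrm4 (0.31 without β-Mfn2KO sample 2, 2 of 10 removals) and Fdx1l (0.31 without β-Mfn2KO sample 1, 2 of 10 removals).

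**Figure D3:**
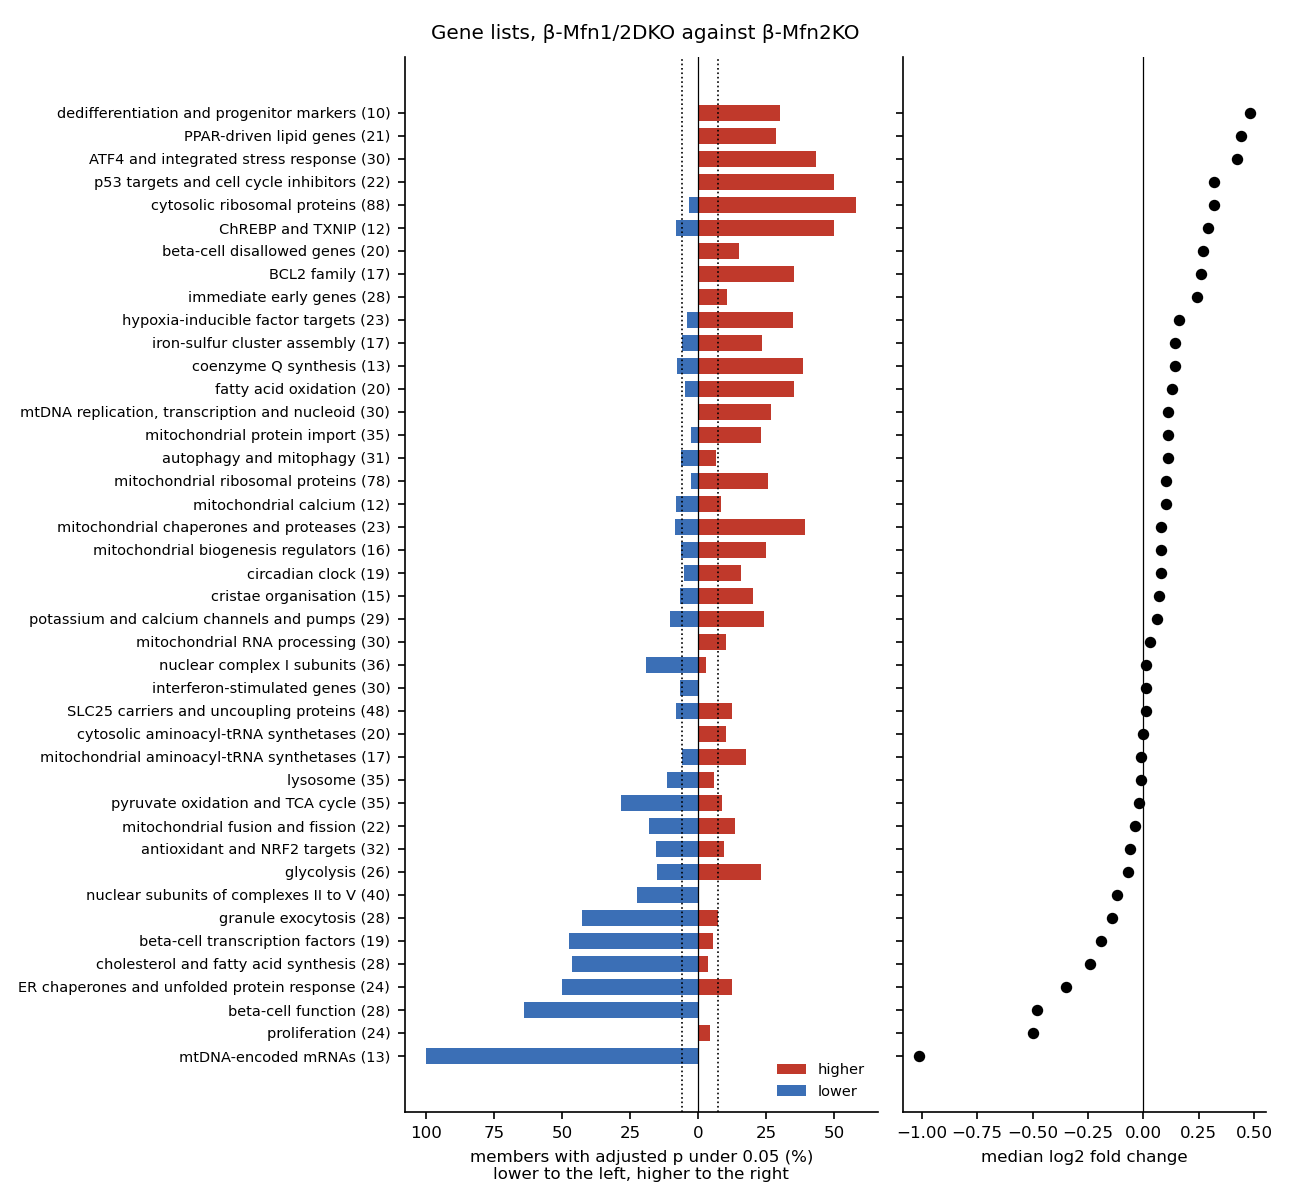
Percent of the members of each gene list with an adjusted p under 0.05 (left, lower in blue and higher in red, the number measured in brackets, dotted lines at 7.09% and 5.90% for all genes) and the median log2 fold change of the list (right). All 13 mtDNA mRNAs fell, as did 64.3% of the β-cell function genes, while 58.0% of cytosolic ribosomal proteins and 43.3% of ATF4 genes rose.

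In the β-cell lists most of the genes that passed fell. Of 28 genes of β-cell function 18 fell and 0 rose (median -0.48), and of 19 β-cell transcription factors 9 fell and 1 rose (median -0.19). With samples of over 40 M counts alone the counts lower were 9 (median -0.26) and 1 (median -0.06), and without β-Mfn1/2DKO samples 4 and 5 they were 13 (median -0.35) and 4 (median -0.13). Because whole islets were sequenced, fewer β cells and less RNA of these genes per β cell cannot be told apart. Ins2, the main insulin gene of the mouse, had 5885298, 4904421, 4447223, 5513291 and 4225422 counts in β-Mfn2KO and 2588383, 2459571, 2333520, 2324621 and 1858698 in β-Mfn1/2DKO samples (-1.11, adjusted p = 9.8e-06, edgeR). Ins1 went from 844696, 730198, 715515, 827552 and 650437 to 265795, 252446, 231510, 239291 and 202304 (-1.66, SE 0.14, adjusted p = 1.1e-07, edgeR). Both insulin genes separated the groups in all 10 samples. The promoter of Ins1 also drives Cre in both groups, in what the study calls a knock-in strain. The mean of Ins1 was 1444206 in Ctrl and 817829 in β-Mfn1KO islets. A part of the Cre allele in the counts of Ins1 was not tested. Iapp, which encodes the amyloid peptide released with insulin (-0.56), and Ucn3, a peptide of mature β cells (-1.31), fell as well.

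Slc2a2, the glucose transporter GLUT2, had 26134, 29677, 21391, 23031 and 17263 counts in β-Mfn2KO and 8098, 8064, 7695, 4924 and 5521 in β-Mfn1/2DKO samples. It fell by 3.42-fold (log2 fold change -1.78, SE 0.16, adjusted p = 1.9e-07, edgeR), and the highest β-Mfn1/2DKO sample lay below the lowest β-Mfn2KO sample. Mafa, a transcription factor of insulin genes, went from 71562, 63119, 47980, 58412 and 38389 to 28431, 22662, 19945, 12484 and 14578 (-1.51, SE 0.18, adjusted p = 6.1e-06, edgeR), again without overlap. For both genes the effect of Mfn1 loss differed with and without Mfn2, by -1.69 for Slc2a2 (adjusted p = 1.2e-04, edgeR) and by -1.43 for Mafa (adjusted p = 0.0013). Ero1lb, an oxidase for disulfide bonds of proinsulin, fell from 80764, 86073, 59722, 65282 and 45172 to 22868, 24364, 21118, 17100 and 16434 (-1.73, adjusted p = 4.1e-07, edgeR). Sytl4, which docks insulin granules, fell by -1.23 in log2 fold change. G6pc2, a glucose-6-phosphatase (-0.95), and Pcsk1, which cuts proinsulin (-0.95), were chosen after their values were seen and fell too. Glp1r (-0.31, adjusted p = 0.078, edgeR) and Kcnj11 (-0.11, adjusted p = 0.42) did not pass. The call was gained on leaving out 1 sample for Glp1r (-0.38 without β-Mfn2KO sample 5).

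Of the transcription factors Nkx6-1 (-0.71), Pdx1 (-0.60) and Pax6 (-0.31) fell beside Mafa, and Insm1 rose (0.27, adjusted p = 0.039, edgeR, samples overlapping). Foxa2 (-0.11, adjusted p = 0.34, edgeR) and Mlxipl (-0.09, adjusted p = 0.76) did not pass. The count of 9 was 5 under total-count scaling (median -0.08), 5 without β-Mfn2KO sample 1, 6 without sample 2 or sample 3, and 5 without β-Mfn1/2DKO sample 4 or sample 5. Among 28 genes of granule exocytosis 12 fell and 2 rose (median -0.14), with Sytl4, Syt5 (-0.65), Scg3 (-0.59), Syt13 (-0.39) and the SNARE gene Snap25 (-0.33) lower and Stx1a (0.34) and Syt9 (0.29) higher. The count of 12 was 7 under total-count scaling (median -0.03), 6 without β-Mfn1/2DKO samples 4 and 5 and 2 with samples of over 40 M counts alone (median -0.02). In potassium and calcium channels and pumps 7 of 29 rose and 3 fell (median 0.06). Itpr2, a calcium release channel (0.73), Cacnb3 (0.43), Cacna1b (0.28) and Kcnh2 (0.27) rose, and the pumps Atp2a3 (-0.42) and Atp2b1 (-0.24) and the channel gene Cacna1a (-0.25) fell. The call ended on removal of 1 sample for Insm1 (0.26 without β-Mfn2KO sample 2, 4 of 10 removals), Syt9 (0.22 without β-Mfn2KO sample 4, 2 of 10 removals), Cacna1b (0.26 without β-Mfn2KO sample 1, 3 of 10 removals), Atp2b1 (-0.19 without β-Mfn1/2DKO sample 4, 2 of 10 removals) and Cacna1a (-0.19 without β-Mfn1/2DKO sample 4, 8 of 10 removals).

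Genes held low in mature β cells were near the background. Of 20 disallowed genes 3 rose (15.0%, beside 12.9% of the genes that pass the filter) and 0 fell (median 0.27): Tst (0.75), Lmo4 (0.54) and Hk1 (0.51), all with overlapping samples, while Ldha (-0.12, adjusted p = 0.9, edgeR) and Slc16a1 (0.96, adjusted p = 0.061) did not pass. Of 10 dedifferentiation and progenitor markers 3 rose and 0 fell (median 0.48). Cd81, a membrane protein of immature β cells, went from 3047, 3056, 3408, 2774 and 3069 to 5999, 6069, 5523, 5676 and 6564 counts (0.96, SE 0.09, adjusted p = 3.0e-07, edgeR). Myc (1.35) and Hes1 (0.43) rose as well, each above all β-Mfn2KO samples. Aldh1a3 (0.70, adjusted p = 0.21, edgeR) and Neurog3 (0.12, adjusted p = 0.59, 16.3% of exon bases antisense to Fam241b) did not pass. Removal of 1 sample ended the call of Tst (0.53 without β-Mfn1/2DKO sample 5, 5 of 10 removals) and Hk1 (0.43 without β-Mfn2KO sample 1, 5 of 10 removals). The call was gained on leaving out 1 sample for Slc16a1 (1.35 without β-Mfn2KO sample 5, 3 of 10 removals).

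In pyruvate oxidation and the TCA cycle 10 of 35 fell and 3 rose (median -0.02). Under total-count scaling 3 fell (median 0.09), with samples of over 40 M counts alone 2 did (median 0.06), and with counts drawn down to the smallest total or without β-Mfn1/2DKO samples 4 and 5 it was 6. Fh1, fumarate hydratase, had 9329, 9285, 7298, 8006 and 7223 counts in β-Mfn2KO and 4936, 4874, 4703, 3980 and 3787 in β-Mfn1/2DKO samples, without overlap (-0.88, SE 0.11, adjusted p = 7.0e-06, edgeR). The pyruvate dehydrogenase phosphatases Pdp2 (-0.53) and Pdp1 (-0.46) fell and the kinase gene Pdk1 rose (0.49), as did Suclg2 (0.55) and Mpc2 (0.20). Cs (0.08, adjusted p = 0.31, edgeR) and Pdha1 (-0.05, adjusted p = 0.56, 16.1% of exon bases antisense to Map3k15) did not pass. Of 26 glycolysis genes 6 rose and 4 fell (median -0.07). Hk1, Pfkfb3 (0.45), Pfkp (0.44) and Pklr (0.42, with 19.9% of its stretches shared with the antisense gene Hcn3) rose, and Pfkfb2 (-0.85), Aldoa (-0.26) and Pgam1 (-0.26) fell beside Slc2a2. Leaving out 1 sample ended the call of Mpc2 (0.20 without β-Mfn2KO sample 2, 5 of 10 removals), Hk1 (0.43 without β-Mfn2KO sample 1, 5 of 10 removals) and Pfkp (0.36 without β-Mfn2KO sample 1, 6 of 10 removals).

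Of 12 genes around ChREBP and TXNIP 6 rose and 1 fell (median 0.29), with Txnip, which binds thioredoxin (0.78), Klf10 (0.62), Pklr and Mid1ip1 (0.31) higher and Mlx (-0.25) lower. Antisense overlap takes 19.4% of the exon bases of Txnip and 19.3% of those of Mlx. In fatty acid oxidation 7 of 20 rose and 1 fell (median 0.13), and under total-count scaling 13 rose (median 0.24). Cpt1a, which passes fatty acids into mitochondria, went from 2124, 1881, 3214, 2156 and 1866 to 3690, 3319, 4026, 3886 and 4286 counts (0.78, adjusted p = 1.2e-04, edgeR), Acaa2 (0.57), Slc25a20 and Eci2 (0.32) rose, and Hadh fell (-0.75). The medium-chain dehydrogenase gene Acadm did not pass (0.01, adjusted p = 0.93, edgeR). Of 21 lipid genes driven by PPARs 6 rose and 0 fell (median 0.44): Fgf21 (2.27), Angptl8 (2.01), the droplet gene Plin2 (0.84) and Cpt1a lead them. Without β-Mfn1/2DKO samples 4 and 5 neither Fgf21 (0.45) nor Plin2 (0.53) passed, and neither did with samples of over 40 M counts alone (2.02 and 0.68). Angptl8 lies within Dock6 and shares no exon bases with it, and Angptl4 did not pass (1.61, adjusted p = 0.053, edgeR). Sterol and fatty acid synthesis went the other way, with 13 of 28 lower and 1 higher (median -0.24). Under total-count scaling 8 were lower (median -0.13), and with samples of over 40 M counts alone 3 were (median -0.14). Scd2, a desaturase (-0.97), the transcription factor gene Srebf1 (-0.60) and Stard4 (-0.56) fell, Hsd17b7 rose (0.32) and Sqle did not pass (-0.14, adjusted p = 0.42, edgeR). Calls that ended without 1 sample were those of Hsd17b7 (0.27 without β-Mfn2KO sample 2, 7 of 10 removals). The call was gained on leaving out 1 sample for Angptl4 (2.36 without β-Mfn2KO sample 5, 2 of 10 removals).

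Genes under ATF4 were among those that rose. Of 30 genes of the integrated stress response 13 rose and 0 fell (median 0.42). Stc2, a secreted glycoprotein, had 53.6, 53.6, 29.6, 146 and 59.4 counts in β-Mfn2KO and 1088, 1357, 1022, 1783 and 1389 in β-Mfn1/2DKO samples. It rose 17.7-fold (log2 fold change 4.15, SE 0.33, adjusted p = 6.8e-08, edgeR) with no overlap. Trib3, a pseudokinase that inhibits AKT, went from 2477, 1941, 4119, 2899 and 3449 to 11620, 13334, 11855, 10871 and 7922 (1.90, SE 0.24, adjusted p = 1.3e-05, edgeR), each β-Mfn1/2DKO sample above every β-Mfn2KO sample. Sesn2 (0.77), a restraint on mTORC1, and the lipoprotein receptor gene Vldlr (0.59) rose without overlap. Atf3 rose from 116, 176, 207, 330 and 374 to 510, 442, 340, 910 and 1273 (1.48, adjusted p = 0.0022, edgeR), with 1 β-Mfn1/2DKO sample below the highest β-Mfn2KO sample. Ddit3, which encodes CHOP, and Nupr1 were chosen after their values were seen. Ddit3 rose from 2200, 2138, 8127, 2556 and 3504 to 9601, 13040, 10719, 8497 and 6243 (1.38, adjusted p = 0.0027, edgeR), where β-Mfn2KO sample 3 reached the range of the other group. Nupr1 rose from 2189, 7161, 9772, 27560 and 8193 to 15380, 19778, 19880, 72494 and 135773 (2.26, adjusted p = 0.0088, edgeR), with overlap. Without β-Mfn1/2DKO samples 4 and 5 neither Nupr1 (0.75) nor Atf3 (0.81) passed, and 10 of the 30 genes rose. Atf4 itself (0.15, adjusted p = 0.38, edgeR) and Gdf15 (0.42, adjusted p = 0.11) did not pass. The call was gained on leaving out 1 sample for Gdf15 (0.57 without β-Mfn2KO sample 3, 2 of 10 removals).

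The motif TGATGNAA (TTNCATCA on the other strand), which ATF4 and C/EBP dimers bind, was searched in the 250 bases before the start of each gene in RefSeq (GRCm38.p6). A gene was counted if any of its promoters held the motif. This was so for 1056 of 27025 genes with a promoter (3.9%) and for 9 of 27 such genes of the ATF4 list (33.3%). Of the 12 such genes of that list that rose, 4 held it (33.3%). The list gathers genes under ATF4, so its share beside that of all genes is not a test. Windows of 68 bases around it are shown for these 4 genes because they rose, with the motif in capitals and the gene's strand given. They lie at chr1:191183406-191183473 on the minus strand for Atf3 (motif ending 102 bases before the start), chr7:126625543-126625610 on the minus strand for Nupr1 (102 bases), chr19:27216790-27216857 on the plus strand for Vldlr (192 bases) and chr7:45615592-45615659 on the minus strand for Fgf21 (131 bases).
Atf3: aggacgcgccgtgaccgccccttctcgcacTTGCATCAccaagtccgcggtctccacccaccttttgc
Nupr1: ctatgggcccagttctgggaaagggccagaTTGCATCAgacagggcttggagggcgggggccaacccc
Vldlr: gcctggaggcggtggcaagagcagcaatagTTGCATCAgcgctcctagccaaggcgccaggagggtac
Fgf21: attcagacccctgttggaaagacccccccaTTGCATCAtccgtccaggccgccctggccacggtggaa

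Genes of the aminoacyl-tRNA synthetases, often under the same control, stayed near the background. Of 20 cytosolic ones 2 rose, Yars (0.23) and Vars (0.20), and 0 fell (median 0.00), and Aars did not pass (-0.01, adjusted p = 0.97, edgeR). Of 17 mitochondrial ones 3 rose, Fars2 (0.23), Tars2 (0.22) and Vars2 (0.18), and 1 fell (median -0.01). That gene, Lars2, went from 45078, 27838, 30764, 42259 and 33617 to 15133, 15027, 18033, 16392 and 21060 counts without overlap (-1.07, SE 0.16, adjusted p = 6.1e-05, edgeR). Dependent on single samples were the calls of Yars (0.23 without β-Mfn2KO sample 2, 4 of 10 removals) and Vars2 (0.18 without β-Mfn2KO sample 1, 2 of 10 removals).

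Chaperones of the endoplasmic reticulum and genes of its unfolded protein response fell more often than they rose. Of 24 genes 12 fell and 3 rose (median -0.35). The count of 12 was 6 under total-count scaling (median -0.24), 3 without β-Mfn1/2DKO samples 4 and 5 (median -0.30) and 1 with samples of over 40 M counts alone (median -0.16). It was 6 without β-Mfn2KO sample 1 or 2 or without β-Mfn1/2DKO sample 4, and 7 without β-Mfn1/2DKO sample 1. Chaperones and their helpers Sdf2l1 (-0.95), Dnajb9 (-0.75), Manf (-0.65) and Dnajc3 (-0.47) fell, while Edem1 (0.56) and Sel1l (0.30), which pass misfolded proteins to degradation, and the sensor gene Ern1 (0.46) rose. The chaperone BiP, encoded by Hspa5 (-0.16, adjusted p = 0.48, edgeR), and Atf6 (0.06, adjusted p = 0.71) did not pass. The call ended on removal of 1 sample for Sel1l (0.26 without β-Mfn2KO sample 4, 4 of 10 removals).

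**Figure D4:**
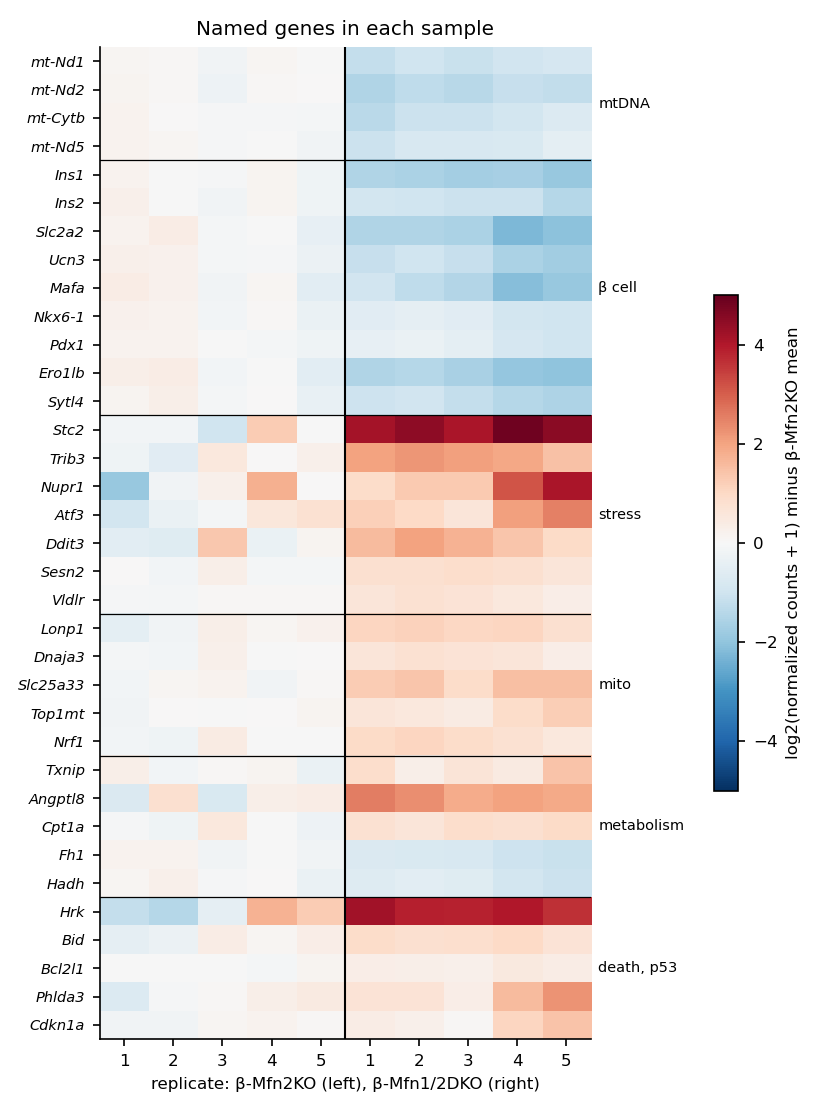
Log2 of normalized counts plus 1 in each of the 10 samples minus the mean of the 5 β-Mfn2KO samples, for named genes grouped by role (colour scale from -5 to 5). β-cell and mtDNA genes are lower in all 5 β-Mfn1/2DKO samples and Stc2, Trib3 and Hrk are higher, while β-Mfn2KO sample 3 for Ddit3 and sample 4 for Nupr1 stand toward the other group.

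Death and p53 genes rose in part. Of 17 genes of the BCL2 family 6 rose and 0 fell (median 0.26), with 10 higher under total-count scaling and 3 without β-Mfn1/2DKO samples 4 and 5 (median 0.17). Hrk, a BH3-only activator of apoptosis, had 2.82, 2.23, 5.38, 28.1 and 19.8 counts in β-Mfn2KO and 156, 128, 123, 137 and 107 in β-Mfn1/2DKO samples. All β-Mfn1/2DKO samples were higher (3.17, SE 0.40, adjusted p = 1.3e-05, edgeR). The log2 fold change of Hrk ranged from 2.49 to 5.20 over the alternatives, as β-Mfn2KO samples 1 to 3, the shallowest, held few counts of it. Bid (0.80), whose exons overlap Bcl2l13, the protective gene Bcl2l1 (0.35) and the pore gene Bax (0.26, and 0.20 without samples 4 and 5, where it did not pass) rose, and Bcl2 did not pass (0.36, adjusted p = 0.12, edgeR). Of 22 p53 targets and cell cycle inhibitors 11 rose and 0 fell (median 0.32). Phlda3 (1.23), Tnfrsf10b (0.81), Trp53inp1 (0.63), Aen (0.43) and Cdkn1a (0.72, chosen after its values were seen), which encodes the inhibitor p21, were among them, and Mdm2 did not pass (-0.05, adjusted p = 0.61, edgeR). Phlda3 showed the pattern of several of these: 223, 346, 380, 440 and 491 counts in β-Mfn2KO and 589, 582, 463, 1099 and 1748 in β-Mfn1/2DKO samples, with samples 4 and 5 highest. The p53 count was 6 without β-Mfn1/2DKO sample 5, 7 without sample 4 and 7 without β-Mfn2KO sample 2. It was 7 under the authors' normalization factors or with counts drawn down to the smallest total, and 0 with samples of over 40 M counts alone (edgeR, 6 at unadjusted p under 0.05). Without β-Mfn1/2DKO samples 4 and 5 it was 3 (median 0.11), and Phlda3 (0.53), Tnfrsf10b (0.33) and Cdkn1a (0.24) did not pass. Removal of 1 sample ended the call of Cdkn1a (0.48 without β-Mfn1/2DKO sample 5).

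Of 32 antioxidant and NRF2 genes 3 rose, Cat (0.60), Gss (0.39) and Gpx4 (0.30), and 5 fell, Nqo1 (-0.63), Srxn1 (-0.46), Prdx1 (-0.33), G6pdx (-0.30) and Pgd (-0.23, chosen after its values were seen), with a median of -0.06. Ikbkg lies antisense to 13.6% of the exon bases of G6pdx. Hmox1 (0.12, adjusted p = 0.7, edgeR) and the factor gene Nfe2l2 (0.10, adjusted p = 0.42) did not pass. In autophagy and mitophagy 2 of 31 rose, Atg101 (0.30) and Optn (0.28), and 2 fell, Nbr1 (-0.33) and Gabarapl2 (-0.18), with a median of 0.11; Pink1 (0.15, adjusted p = 0.3, edgeR) and Sqstm1 (0.12, adjusted p = 0.52) did not pass. For 35 lysosome genes 2 rose, Ctsz (0.34) and Npc1 (0.17), and 4 proton pump genes fell, Atp6ap2 (-0.43), Atp6v1a (-0.25), Atp6v1b2 (-0.20) and Atp6v0a1 (-0.16), with a median of -0.01. Of 30 interferon-stimulated genes 0 rose and 2 fell, Mx1 (-1.32) and Usp18 (-0.37), with a median of 0.01. Leaving out 1 sample ended the call of Gpx4 (0.25 without β-Mfn2KO sample 1, 3 of 10 removals), Pgd (-0.16 without β-Mfn2KO sample 5, 4 of 10 removals), Gabarapl2 (-0.15 without β-Mfn1/2DKO sample 4, 8 of 10 removals), Ctsz (0.29 without β-Mfn2KO sample 1, 7 of 10 removals) and Npc1 (0.13 without β-Mfn1/2DKO sample 5, 5 of 10 removals). Calls that ended without 1 sample were those of Atp6v1a (-0.21 without β-Mfn2KO sample 3, 4 of 10 removals), Atp6v1b2 (-0.17 without β-Mfn1/2DKO sample 4, 6 of 10 removals), Atp6v0a1 (-0.14 without β-Mfn2KO sample 2, 10 of 10 removals) and Usp18 (-0.27 without β-Mfn2KO sample 5, 10 of 10 removals).

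Of 24 proliferation genes 1 rose, Mcm7 (0.45), and 0 fell (median -0.50), and Mki67 did not pass (-0.75, adjusted p = 0.24, edgeR). In hypoxia-inducible factor targets 8 of 23 rose and 1 fell (median 0.16), with Bhlhe40 (0.51), Pdk1, Mxi1 (0.29) and the oxygen sensor gene Egln1 (0.28) higher and Kdm3a (-0.25) lower, and Hif1a did not pass (-0.08, adjusted p = 0.33, edgeR). Among 28 immediate early genes 3 rose, Atf3, Myc and Klf4 (0.63), and 0 fell (median 0.24), while Fos did not pass (-0.50, adjusted p = 0.46, edgeR). Of 19 clock genes 3 rose, Ciart (1.01) and Bhlhe40 among them, and Clock fell (-0.23), with a median of 0.08. Dependent on single samples were the calls of Kdm3a (-0.20 without β-Mfn1/2DKO sample 4, 8 of 10 removals), Klf4 (0.41 without β-Mfn1/2DKO sample 5, 4 of 10 removals) and Clock (-0.20 without β-Mfn1/2DKO sample 2, 8 of 10 removals).

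Several called genes with large changes, means of 100 or more and no overlap lay outside these lists. Areg, a ligand of the EGF receptor, had 56.4, 82.6, 2121, 141 and 177 counts in β-Mfn2KO and 2882, 2588, 2698, 3139 and 2920 in β-Mfn1/2DKO samples. β-Mfn2KO sample 3 came close to the other group, yet below it (log2 fold change 4.53 without sample 3; with it 2.55, SE 0.60, adjusted p = 0.0058, edgeR). Areg did not pass under the DESeq2 Wald test or without β-Mfn2KO samples 4 and 5, and its lowest value over the alternatives was 1.93. Vmn2r3, of a pheromone receptor family, went from 22.6, 22.3, 202, 22.7 and 26.4 to 1243, 1477, 805, 2010 and 1655 (4.84, adjusted p = 5.1e-07, edgeR), where sample 3 again stood highest of its group. Its log2 fold change ranged from 4.15 to 5.92 over the alternatives. Vrtn (3.28), Mslnl (3.04), the glutamine transporter gene Slc38a3 (2.81), Sgip1 (2.66), Fstl5 (2.50) and the olfactory receptor gene Olfr330 (2.41) rose as well, and so did Phyhd1 (2.71), which overlaps Gm28035. The log2 fold change of Vrtn ranged from 2.92 to 4.22 over the alternatives and that of Slc38a3 from 1.91 to 4.12. Slc38a3 did not pass with samples of over 40 M counts alone. In the other direction the iron-binding protein gene Meltf (-2.01) and Bambi-ps1 (-2.20) fell, as did AC137585.3 (-1.71) and the mtDNA copies Gm10222 (-2.08), Gm28439 (-2.07) and Gm29216 (-1.99), whose counts cannot be told apart from those of the mtDNA itself. Over the alternatives Gm29216 ranged from -2.68 to -0.99, Gm10222 from -2.41 to -1.32 and Gm28439 from -2.16 to -1.93. Gm29216 did not pass without β-Mfn2KO samples 4 and 5. Gm13340 (-2.03) shares 15.8% of its stretches with other genes, mostly with mt-Co1. β-Mfn2KO sample 3 was the sample of its group nearest the β-Mfn1/2DKO mean for 242 of the 586 genes called higher (41.3%) and for 166 of the 513 called lower (32.4%).

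Some of the largest changes sat near the targeted genes. Cldn11, a tight junction gene 1.38 Mb from Mfn1, had 53.6, 40.2, 40.4, 28.8 and 49.5 counts in β-Mfn2KO and 701, 1163, 632, 979 and 849 in β-Mfn1/2DKO samples (4.38, SE 0.62, adjusted p = 4.4e-05, edgeR). The groups did not overlap, yet Ctrl islets averaged 758 and β-Mfn1KO islets 1700, so the β-Mfn2KO group was the low one. Angptl7, 0.62 Mb from Mfn2, went from 2195, 2591, 1752, 2286 and 1436 to 661, 641, 520, 523 and 522 (-1.84, adjusted p = 0.0012, edgeR), with a mean of 447 in β-Mfn1KO and 1499 in Ctrl islets, and its effect of Mfn1 loss did not differ with and without Mfn2 (difference -0.09, adjusted p = 1). Gm37459 (-2.47), antisense to Pex5l, lies 0.41 Mb from Mfn1, Slc2a2 3.83 Mb from it, and Slc25a33 1.87 Mb from Mfn2. Within 5 Mb of Mfn1, 12 of 108 genes passed (11.1%) and 5 were called (4.63%), which includes Gpr160 (1.05) and Tmem212 (-2.13), both chosen after their values were seen. Within 5 Mb of Mfn2, 18 of 178 passed (10.1%) and 7 were called (3.93%), against 13% and 3.84% of the other genes. Whether DNA flanking the alleles had a part in these changes was not tested. The call ended on removal of 1 sample for Gpr160 (0.98 without β-Mfn2KO sample 2, 4 of 10 removals).

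Markers of other cell types were looked at as well. In edgeR, 0 of 7 alpha cell markers passed (median 0.37, 5 at unadjusted p under 0.05), 0 of 5 delta cell markers (median -0.11, 0 at unadjusted p under 0.05) and 0 of 2 PP cell markers (median 0.04, 0 at unadjusted p under 0.05). All 10 β cell markers fell (median -1.03), and their summed level went from 7886796, 6810785, 6263518, 7586780 and 5939633 to 3638490, 3584390, 3334405, 3219369 and 2681267 normalized counts, Ins2 being the most abundant. The sum of the alpha cell markers went from 1314350, 1256063, 877052, 883804 and 1019340 to 1534170, 1723288, 1391919, 1328347 and 2233055, mostly Gcg, and was higher in every β-Mfn1/2DKO sample. Gcg itself did not pass (0.62, adjusted p = 0.064, edgeR). No marker of any of the lists was at 0 in all 10 samples. Whether the shares of cell types had a part in the β-cell results was not tested.

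Endothelial markers rose: 15 of 17 passed higher and 0 lower (median 0.66). The count was 6 with counts drawn down to the smallest total (median 0.60), and 9 with samples of over 40 M counts alone or without β-Mfn1/2DKO samples 4 and 5. Their sum was 12255, 9035, 11460, 10869 and 10920 in β-Mfn2KO and 15548, 14929, 12915, 20008 and 18300 in β-Mfn1/2DKO samples, without overlap. Kdr, the receptor for VEGF and the most abundant of them, rose by 0.45 and Plvap by 0.70, and Vegfa did not pass (0.15, adjusted p = 0.19, edgeR). Of 20 stromal and matrix markers 4 rose, the basement membrane genes Col4a2 (0.55), Col4a1 (0.44), Lamb1 (0.52) and Lamc1 (0.36, the last pair chosen after their values were seen), and 0 fell (median 0.31). Among 6 duct markers Krt7 rose (0.39, median of the list 0.79). Of 27 leukocyte markers C1qa fell (-0.60, chosen after its values were seen, median of the list -0.05), and β-Mfn2KO sample 5 held 26334 counts of Lyz2, whose fold change was -2.03 and without that sample 0.83. In edgeR, 0 of 7 Reg genes (median 1.45, 1 at unadjusted p under 0.05), 0 of 6 Schwann cell markers (median 0.63, 1 at unadjusted p under 0.05) and 0 of 5 red blood cell markers (median 0.92, 0 at unadjusted p under 0.05) passed. Removal of 1 sample ended the call of Kdr (0.40 without β-Mfn2KO sample 2, 2 of 10 removals) and C1qa (-0.39 without β-Mfn2KO sample 5, 5 of 10 removals).

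Acinar RNA varied widely within both groups. The 34 acinar markers took 0.0873%, 0.281%, 0.0871%, 1.15% and 0.116% of all counts in β-Mfn2KO and 0.0807%, 0.133%, 0.0823%, 2.96% and 7.58% in β-Mfn1/2DKO samples, with the amylase gene Amy2a5 the most abundant. β-Mfn1/2DKO samples 4 and 5 stood above all others. Of the 34, 2 rose and 1 fell (median 2.48): the trypsinogen genes Prss1 (8.18) and Prss3 (5.14) and the factor gene Bhlha15 (-1.03), all chosen after their values were seen. Prss3 shares 53.9% of its stretches with Gm10334 and Prss1 37.1% with other genes, so their counts are uncertain. The DESeq2 Wald test gave 14 higher, and counts drawn down to the smallest total gave 8. Without β-Mfn1/2DKO sample 5, 0 rose in edgeR and without β-Mfn2KO sample 4, 29 did. Without β-Mfn1/2DKO samples 4 and 5 the fold changes of Prss1 and Prss3 were -1.69 and -1.31. These samples also held the most Mfn1 RNA of their group, and a part of acinar RNA in this was not tested. With a score of acinar RNA per sample as a covariate 1014 genes were called, 934 of them also called in the first fit. Mfn1 passed in that fit as well. Leaving out 1 sample ended the call of Prss1 (2.50 without β-Mfn1/2DKO sample 5) and Prss3 (1.86 without β-Mfn1/2DKO sample 5, 2 of 10 removals). With 1 sample left out a call was gained for Amy2a5 (3.86 without β-Mfn2KO sample 4).

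**Figure D5:**
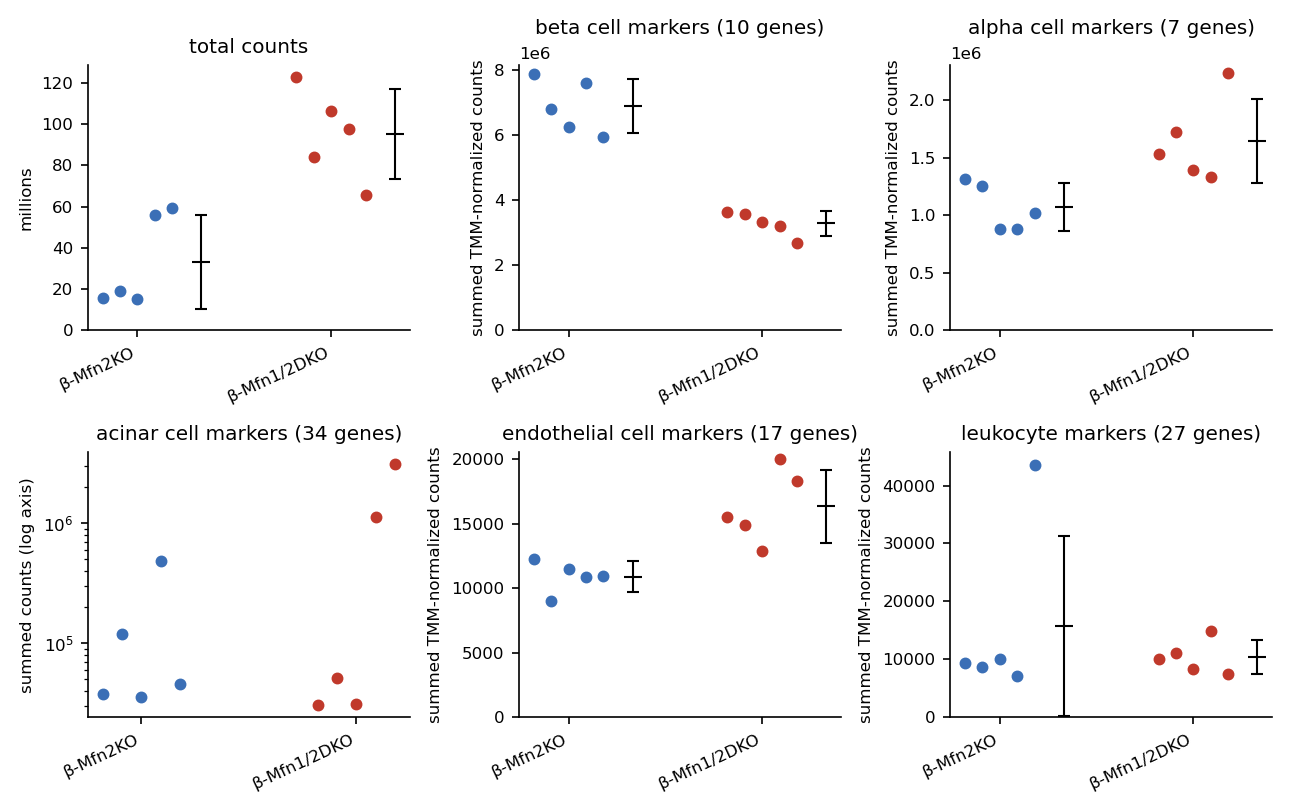
Total counts (M) and summed normalized counts of marker genes in each of the 10 samples, with points for samples and bars for mean and SD (acinar markers: summed counts on a log axis, no bars). Depth does not overlap between the groups, acinar counts are highest in β-Mfn1/2DKO samples 4 and 5, and the sum of endothelial markers is higher in all 5 β-Mfn1/2DKO samples.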

How the data were processed

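The values analysed are the estimated counts per gene deposited by the authors, who trimmed 151-base paired-end reads with cutadapt 2.3, checked them with FastQC 0.11.8, aligned them with STAR 2.6.1b and counted with RSEM 1.3.1. They came as whole numbers, so nothing was rounded here. A second deposited table holds a signal scaled with DESeq2 1.26.0 by the authors, used here only for its normalization factors. Whether the counting was stranded is not said, so counts of genes that overlap or lie antisense are uncertain, and larger overlaps with abundant partners are given beside the genes. Gene positions came from GENCODE vM21 on GRCm38, the same build; the authors name a later annotation release. Of 28632 gene IDs, 71 had no symbol.

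All 20 samples were fitted together with edgeR 4.0.16 (R 4.3.3), TMM normalization, quasi-likelihood F-tests and Benjamini-Hochberg adjustment over all genes; prior degrees of freedom were 6.24 and residual 16. A gene was called at adjusted p under 0.05 and a fold over 1.5. The difference between the effects of Mfn1 loss without and with Mfn2 was the interaction contrast. Shares were compared by an exact permutation of samples, with Wilson 95% intervals that cover counting error only. Alternatives used DESeq2 1.42.0, and limma 3.58.1 was loaded by edgeR; tables and figures used Python 3.11.15, NumPy 2.4.6, pandas 2.3.3, SciPy 1.17.1 and Matplotlib 3.10.9. The code was tested on simulated data. Shared sequence was counted in 75-base stretches, neighbours within 5 Mb, and the seed was 23.

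Genes named are the targeted genes and all mtDNA mRNAs; in each direction the 12 called genes that changed most, given a mean of 100 or more and no overlap between groups; per list up to 4 members per direction by p and up to 2 more of central role; genes the study names; and the 2 most abundant of each marker list. The 43 gene lists, 12 marker lists and their members were chosen with earlier results of these data known. Some members of central role, and genes said to be chosen after their values were seen, were picked after the fit. Some of the genes and sequences that this rule and the design chose are not reported here.

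Depth did not overlap between the groups, and whether the replicate number marks pairs is not known. Bulk RNA gives no cell numbers. mtDNA copy number, protein and chromatin were not analysed here. Short and overlapping transcripts, copies of mtDNA in the nuclear genome and flanking DNA of the alleles limit what single genes can show.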

Additional observations from a re-analysis of the deposited data

Results flagged for a closer look

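Some groups of values held 1 sample far from the other 4, given as the gap to the nearest sample over the range of the group. Of 96 groups looked at, 12 held such a sample (12.5%), all of them groups of β-Mfn2KO samples. The cutoff of 0.71 flags about 1 in 20 groups of independent, normally distributed values. Counts and marker sums need not be either, so that rate is not a measure of chance here.

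β-Mfn2KO sample 4 stood apart for Mfn1 (0.76), Stc2 (0.74), Slc38a3 (0.87) and the sums of acinar (0.82) and Reg (0.77) markers. β-Mfn2KO sample 3 stood apart for Vmn2r3 (0.98), Areg (0.94), Vrtn (0.85) and Nrf1 (0.72), each time toward the β-Mfn1/2DKO samples. β-Mfn2KO sample 5 stood apart for the sums of leukocyte (0.92), stromal (0.72) and red blood cell (0.97) markers. What set these samples apart was not tested.

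The effect of Mfn1 loss differed with and without Mfn2 for 1694 genes (5.92%), and for 26 of 34 genes of the targeted, largest-change and study-named sets. Many of the latter were chosen for a large change between the same 10 samples, which is a part of that test, so their count is raised by the choice.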

How the results depend on the processing

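The results were repeated under 26 alternatives, 3 of them chosen after the data had been seen. All 13 mtDNA mRNAs were lower in each, and between 98.3% and 100% of the called genes kept their sign. Fewer stayed called: of the 1099, 549 with counts drawn down to the smallest total, 566 with samples of over 40 M counts alone and 629 without β-Mfn1/2DKO samples 4 and 5. Of 308 named genes, 243 passed in the first fit, 93 of these passed in every alternative, and 4 of the 243 changed sign in at least 1.

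The number of genes called was 1099 and ranged from 877 to 1164 with 1 sample left out; at adjusted p under 0.05 alone it was 3719, with 2809 to 3720. Counts drawn down to the smallest total gave 2292 by adjusted p, and samples of over 40 M counts alone gave 1805, where fewer samples were tested. The interaction count of 1694 ranged from 1228 to 1842 with 1 sample left out, was 2892 under the DESeq2 Wald test and 961 with drawn-down counts; the cause was not tested. Total-count scaling shifted the balance, with 70.9% of calls higher against 53.3% in the first fit and a median of kept genes of 0.13.

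The mtDNA mRNA share differed by -0.518 points, and by -0.539 to -0.492 with 1 sample left out (exact permutation p = 0.016). Without acinar markers in the denominator the difference was -0.506 (exact permutation p = 0.0079). With samples of over 40 M counts alone it was -0.533 (exact permutation p = 0.095, the smallest that 21 arrangements allow), and without β-Mfn2KO sample 3 and β-Mfn1/2DKO samples 4 and 5 it was -0.571 (exact permutation p = 0.057, the smallest that 35 allow).

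Whether replicate numbers mark pairs was not settled. Correlations of samples of equal number ran from -0.066 to 0.33, with 3 of 5 over 0.1. Their mean was 0.18, against -0.048 for samples of unequal number. Of the 5 β-Mfn1/2DKO samples, 2 were nearest the β-Mfn2KO sample of their own number. With the number as a block 1081 genes were called and 1457 passed the interaction, and within pairs the mtDNA share difference was -0.518 (exact permutation p = 0.062, the smallest possible).

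For 6 genes the sign turned with the change past the threshold before or after. Other named genes that did not pass also lay on both sides of 0, such as Lyz2, Amy2a5 and Ppargc1a. Mrps21 was 0.05 under the authors' normalization factors (adjusted p = 0.78, edgeR). The log2 fold change of Rpl39l was 0.23 without β-Mfn2KO sample 5 (adjusted p = 0.95, edgeR) and -3.99 without β-Mfn2KO sample 4 (adjusted p = 0.01, edgeR). Without β-Mfn2KO sample 3 and β-Mfn1/2DKO samples 4 and 5, Reg1 was -2.25 and Hbb-bs -3.10, Prss1 was -1.87 and Prss3 -1.53. Without β-Mfn1/2DKO samples 4 and 5 alone Prss1 was -1.69 and Prss3 -1.31, and the acinar markers turned to a median of -1.99.

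The setting of samples of over 40 M counts alone kept 5 β-Mfn1/2DKO samples and, of β-Mfn2KO, only samples 4 and 5. Depth and the smaller number of samples cannot be told apart in it. List counts were lower there. They went from 18 to 9 for β-cell function, from 9 to 1 for its transcription factors and from 12 to 1 for the unfolded protein response. For cytosolic ribosomal proteins they went from 51 to 14, for p53 targets from 11 to 0 (edgeR) and for ATF4 genes from 13 to 11. Both counts need not hold the same genes: Atf3, Nupr1 and Fgf21, in the count of 13, did not pass there. Medians shrank as well, from -0.48 to -0.26 for β-cell function, from -0.19 to -0.06 for its transcription factors and from -0.35 to -0.16 for the unfolded protein response, while that of ATF4 genes went from 0.42 to 0.49. With 1 sample left out the counts ranged from 16 to 19 for β-cell function, 5 to 8 for its transcription factors, 13 to 14 for ATF4 genes, 45 to 63 for cytosolic ribosomal proteins, 6 to 13 for the unfolded protein response and 11 to 16 for endothelial markers.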

Other observations

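In β-Mfn1/2DKO samples 4 and 5, Mfn1 RNA (856 and 1062), the acinar share (2.96% and 7.58%), Nupr1 (72494 and 135773) and Phlda3 (1099 and 1748) were all the highest of the group, and Slc2a2 (4924 and 5521) and Mafa (12484 and 14578) the lowest. A link among these was not tested. With the acinar score as a covariate Phlda3, Nupr1, Slc2a2 and Mafa passed. Under that covariate 9 p53 targets rose (median 0.21), against 11 (median 0.32) in the first fit.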
